A study of Mus musculus with 6 samples.

Results

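The 10 genes described here encode the mouse NF-κB subunits and their main inhibitors, and they were chosen by gene name. They are the 5 subunits Rel, Rela, Relb, Nfkb1 and Nfkb2 and the 5 inhibitors Nfkbia, Nfkbib, Nfkbid, Nfkbie and Tnfaip3, of 47643 annotated genes in all. RNA was sequenced from regulatory T cells induced in culture (iTreg), taken from C57BL/6 mice that carry the Foxp3-DTR/EGFP allele, which marks Foxp3+ cells with a green fluorescent protein. Both groups shared this allele, the culture and the sort: CD4+ T cells of the spleen were grown for 2 days with plate-bound anti-CD3, soluble anti-CD28 and TGF-β, and GFP+ cells were sorted after the treatment. The PGE2 cells received 100 nM prostaglandin E2 (PGE2) for 6 h (PGE2, 3 libraries), and the Vehicle cells received DMSO for the same time (Vehicle, 3 libraries). The age of the mice is not given in the labels. Whether the libraries of a group came from separate mice or cultures is not in the labels, so each p-value covers the spread between these libraries alone, which may be technical. The question is how PGE2, a lipid signal read by the receptors EP1 to EP4, bears on the transcripts of these cells.

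NF-κB is a family of dimeric transcription factors. Rela, Relb and Rel carry a transactivation domain, while Nfkb1 and Nfkb2 are made as long precursors that act as inhibitors until they are processed to p50 and p52. IκB proteins hold the dimers in the cytoplasm until an IκB kinase marks them for degradation, and several inhibitor genes, Nfkbia and Tnfaip3 among them, are themselves switched on by NF-κB, which closes a negative feedback loop. In T cells the pathway is driven by the antigen receptor, CD28 and receptors of the TNF family, and Rel is known to be required for the development of regulatory T cells.

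The NF-κB consensus, the sequence recognised by the dimers, was found within 250 bases before and 50 bases after the transcription start of 6 of the 8 genes that have an entry in the promoter table: Rel, Nfkb2, Nfkbia, Nfkbid, Nfkbie and Tnfaip3. Of all 27025 genes in that table, 5.14% hold it. Both strands were searched, and the windows of Rela and Nfkbib hold no match. The stretches below show matches in Nfkbia and Tnfaip3, whose values varied most between libraries, in Nfkbid, which also holds a cAMP response element, and in the remaining 3 genes with a match. They are RefSeq sequences of GRCm38.p6, written 5′ to 3′ on the strand of the gene, and capitals mark the NF-κB consensus and, near the end of the Nfkbid stretch, the cAMP response element TGACGTCA.
Nfkbia, chr12:55492648-55492747, minus strand, ending at the base before the start: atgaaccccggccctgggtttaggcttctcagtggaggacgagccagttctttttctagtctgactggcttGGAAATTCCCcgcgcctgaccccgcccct
Tnfaip3, chr10:19015411-19015544, minus strand, ending at the base before the start: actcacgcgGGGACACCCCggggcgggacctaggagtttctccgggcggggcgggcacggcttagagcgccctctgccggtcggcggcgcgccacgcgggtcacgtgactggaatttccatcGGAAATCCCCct
Nfkbid, chr7:30422171-30422371, plus strand, before the start at 30422406: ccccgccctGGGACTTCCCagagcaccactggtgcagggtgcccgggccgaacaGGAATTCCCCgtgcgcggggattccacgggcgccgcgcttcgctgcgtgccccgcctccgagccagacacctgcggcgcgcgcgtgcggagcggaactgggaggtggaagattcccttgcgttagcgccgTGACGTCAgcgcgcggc
Rel, chr11:23771042-23771070, minus strand: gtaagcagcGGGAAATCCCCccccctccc
Nfkb2, chr19:46304689-46304717, plus strand: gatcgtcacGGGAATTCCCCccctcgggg
Nfkbie, chr17:45555585-45555612, plus strand: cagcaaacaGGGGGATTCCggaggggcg

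The match in Nfkbia lies at bases -29 to -20 from its start, and Tnfaip3 has a match at -125 to -116 and another at -12 to -3. In Rel and in Nfkb2 the capitals span 3 overlapping matches, counted on both strands. Nfkb2 has further matches that are not printed, at -11 to -2 from the same start and near its later starts. The cAMP response element TGACGTCA, the site of the CREB factors that act downstream of cAMP, was found in 1 of the 8 genes, Nfkbid, at -51 to -44, and in 2.03% of all genes in the table. Its shorter core TGACGT, which overlaps the full element, was found in Nfkbid, Tnfaip3 and Rel, against 8.37% of all genes. These matches describe the letters only.

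None of the 10 genes passed the test after PGE2. Levels are given as FPKM (fragments per length of transcript, scaled to library size), and changes as the difference of log2(FPKM + 1), PGE2 minus Vehicle, from limma with p-values adjusted over the 12113 genes that averaged at least 1 FPKM. All 10 genes were above that level and were tested, and 0 rose and 0 fell at an adjusted p under 0.05, against 0.57% of all tested genes called higher and 0.239% called lower. With the replicate number as a block the count for the 10 genes was again 0 in each direction, against 1.77% of all tested genes called higher and 1.49% called lower. Without the block 0 of the 10 had an unadjusted p under 0.05, against 13% of all tested genes, and with it 1 did, Tnfaip3, against 19.7% of all tested genes. The PGE2 and Vehicle values overlapped for each of the 10 genes, while 19.7% of all tested genes had groups that did not overlap. In 7 of the 10 genes (70%) the mean log2 level was higher in PGE2, against 43.3% of all tested genes, and in 3 it was lower. The median log2 change was 0.09, against -0.03 over all tested genes. In sorted cells measured in bulk, fewer cells of a type and less RNA per cell cannot be told apart.

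**Figure D1:**
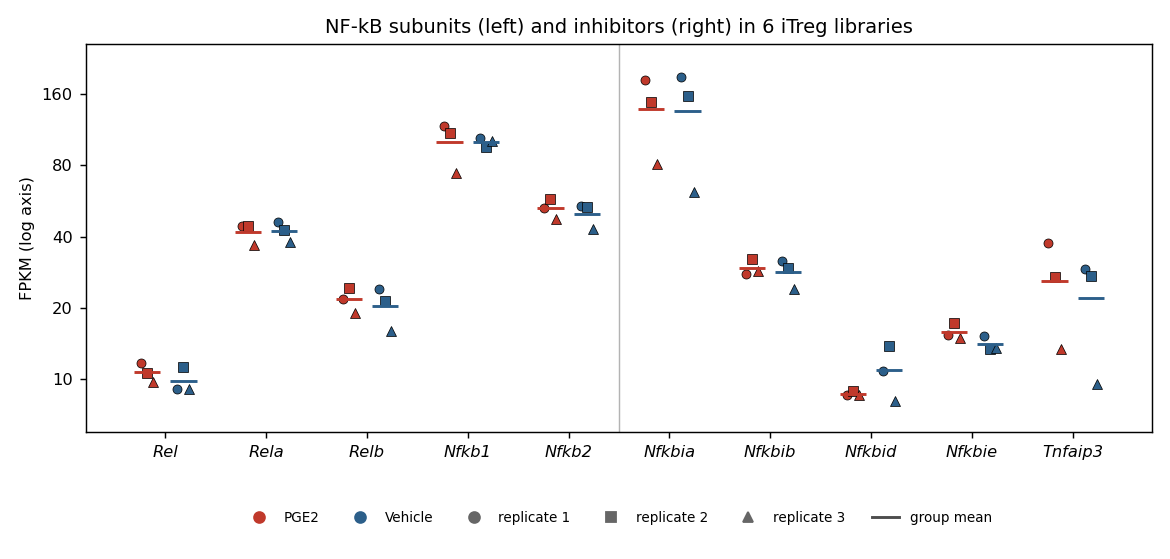
FPKM (log axis) of the 5 subunits, left of the line, and the 5 inhibitors, right of it, in each library. PGE2 is in red and Vehicle in blue, the marker shape gives the replicate number and the bar the group mean. The PGE2 and Vehicle points overlap for every gene, and the triangles of replicate 3 sit far below the other points for Nfkbia and Tnfaip3 in both groups.

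Among the subunits, Rela, the transactivating partner of the most common NF-κB dimer, was the most even between groups. It had 44.2, 44.4 and 37 FPKM in PGE2 replicates 1, 2 and 3, against 46.2, 42.9 and 37.8 FPKM in Vehicle replicates 1, 2 and 3. Its log2 change was -0.01 ± 0.11 (SE, n = 3 per group), with an adjusted p of 0.976 in limma, and turned to 0.03 when each library was centred on its median. The 95% interval allows a fold between 0.827 and 1.19.

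Rel, the subunit tied to regulatory T cell development, had the lowest level of the 5. It had 11.7, 10.7 and 9.75 FPKM in PGE2 and 9.08, 11.3 and 9.14 FPKM in Vehicle. Vehicle replicate 2 stood within the PGE2 range, and the 2 other Vehicle libraries stood below it. Its log2 change was 0.11 ± 0.12 (SE, n = 3 per group) with an adjusted p of 0.767 in limma, and the interval allows a fold between 0.896 and 1.31.

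Relb, which pairs with p52 in the alternative NF-κB pathway, had 21.8, 24.3 and 19.1 FPKM in PGE2 and 24.0, 21.5 and 16.0 FPKM in Vehicle. The lowest value of each group was that of replicate 3, and the other PGE2 and Vehicle values interleaved. The log2 change was 0.09 ± 0.16 (SE, n = 3 per group), with an adjusted p of 0.881 in limma and an interval for the fold of 0.824 to 1.38.

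Nfkb2, the precursor of p52, had 53.1, 57.5 and 47.5 FPKM in PGE2 and 53.9, 53.3 and 42.9 FPKM in Vehicle. Its first part overlaps a long non-coding RNA gene on the opposite strand (GRCm38). Again replicate 3 was the lowest of each group and the groups overlapped. Between groups the log2 change was 0.08 ± 0.12 (SE, n = 3 per group), with an adjusted p of 0.870 in limma and an interval for the fold of 0.869 to 1.28.

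Nfkb1, the precursor of p50, had 117, 110 and 74.5 FPKM in PGE2 and 105, 95.9 and 101.4 FPKM in Vehicle. PGE2 replicates 1 and 2 were above all Vehicle libraries and PGE2 replicate 3 was below all of them, so the sign of the difference rests on that library. The log2 change was -0.03 ± 0.17 (SE, n = 3 per group), with an adjusted p of 0.964 in limma. It was 0.17 without PGE2 replicate 3, 0.12 from the deposited coverage, 0.14 from the assembled locus that holds the gene, and 0.02 when libraries were centred on their medians.

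The deposited values of Nfkb1 in that library also differ in how they relate to its locus and coverage. The entry listed under the annotated gene carried 70.4% of the FPKM of the assembled locus in PGE2 replicate 3, where the locus had 105.8 FPKM, and 100% in the other 5 libraries. Of the genes with a single transcript, 97.3% to 97.7% per library had coverage and FPKM in a fixed ratio, to within 1%. For Nfkb1 the ratio of coverage to FPKM was 45.7% of that fixed ratio in PGE2 replicate 3 and 33.0% to 33.4% in the other 5 libraries. Coverage divided by the fixed ratio put Nfkb1 at 36.5 in PGE2 and 33.4 in Vehicle on the FPKM scale. A gene model of unknown function, Gm43430, lies inside Nfkb1 on the same strand (GRCm38), so the split of reads between them is uncertain.

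**Figure D2:**
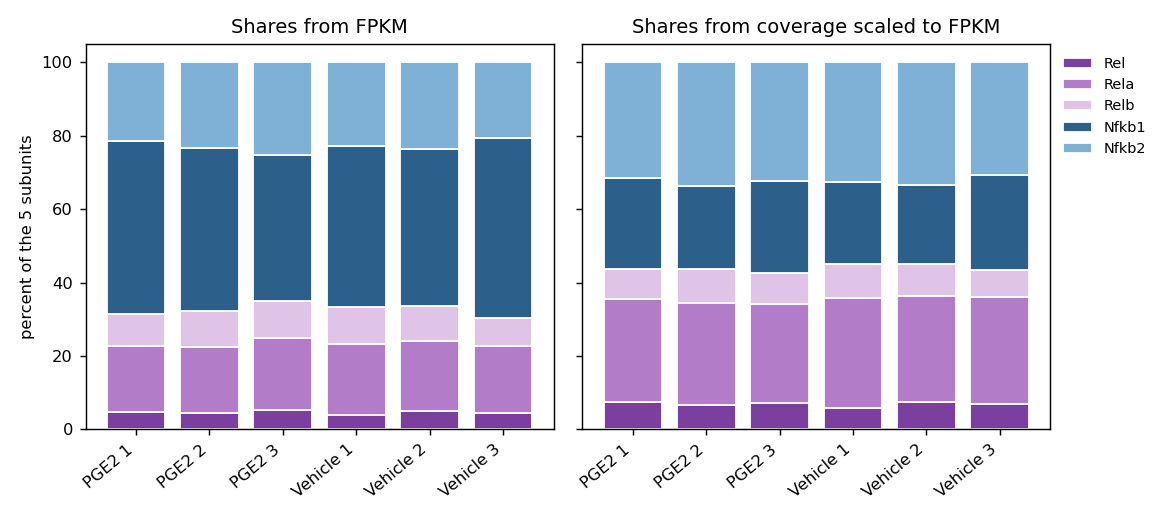
Share of each subunit in the sum of the 5 subunits (percent), per library, from the deposited FPKM on the left and from coverage scaled to FPKM on the right. Nfkb1 holds 39.6% to 47.2% in PGE2 and 42.7% to 48.9% in Vehicle from FPKM, but 22.7% to 24.9% in PGE2 and 21.5% to 25.9% in Vehicle from coverage.

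The make-up of the subunit pool differed more between the measures than between PGE2 and Vehicle. By FPKM, Nfkb1 made up 43.8% ± 3.83 of the 5 subunits in PGE2 and 45.2% ± 3.30 in Vehicle (SD, n = 3 each). Nfkb2 followed with 23.3% in PGE2 and 22.4% in Vehicle, and Rela with 18.5% in PGE2 and 18.9% in Vehicle. By coverage Nfkb2 came first, with 32.5% in PGE2 and 32.3% in Vehicle, then Rela with 27.6% ± 0.530 in PGE2 and 29.2% ± 0.615 in Vehicle (SD, n = 3 each), then Nfkb1 with 24.1% in PGE2 and 23.2% in Vehicle. Rela held 27.1% to 28.1% by coverage in PGE2 libraries and 28.7% to 29.9% in Vehicle libraries, the one subunit whose shares did not overlap on that measure, and it held 17.9% to 19.7% in PGE2 and 18.3% to 19.4% in Vehicle by FPKM, which overlap. Relb and Rel were the smallest shares on both measures in both groups, with 9.62% and 4.75% in PGE2 and 9.13% and 4.42% in Vehicle by FPKM. The Rela values themselves overlapped between groups on both measures, and a share also depends on the other subunits in the sum. By FPKM, 19.7% of all tested genes had groups that did not overlap. No share was tested. Coverage was scaled by the ratio seen in genes with a single transcript, and the subunits differ in that ratio. In PGE2 replicate 1 it was 100% of the fixed ratio for Rel and Rela, 93.3% for Nfkb2, 58.9% for Relb and 33.4% for Nfkb1. Which measure is nearer to the RNA level of these genes was not tested.

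Among the inhibitors, Nfkbia, which encodes IκBα and is the classic feedback inhibitor of Rela dimers, had the highest level of the 10 genes and one of the widest spreads. It had 184, 148 and 81.3 FPKM in PGE2 replicates 1, 2 and 3, against 188, 157 and 61.5 FPKM in Vehicle replicates 1, 2 and 3. Within replicate numbers 1, 2 and 3 the groups differed by -0.04, -0.08 and 0.40 on the log2 scale, and replicate 3 was the lowest in each group. The log2 change was 0.10 ± 0.45 (SE, n = 3 per group) with an adjusted p of 0.955 in limma, and the interval of 0.513 to 2.23 for the fold leaves both a fall and a rise of about that size within the error. Blocked on the replicate number, the error was 0.11, the adjusted p 0.683 and the interval for the fold 0.889 to 1.28.

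Tnfaip3, which encodes A20, a ubiquitin-editing enzyme that shuts off signalling to the IκB kinase, was also uneven within groups. It had 37.6, 27.1 and 13.4 FPKM in PGE2 and 29.2, 27.3 and 9.59 FPKM in Vehicle. PGE2 replicate 1 was the highest library, and the replicate 3 libraries were the lowest of each group. The log2 change was 0.26 ± 0.48 (SE, n = 3 per group) with an adjusted p of 0.891 in limma, and the fold interval was 0.55 to 2.62. With the block the error was 0.11, the interval 1.01 to 1.43 and the p 0.044 before and 0.240 after limma's adjustment over all tested genes. The difference within replicate numbers 1, 2 and 3 was 0.36, -0.01 and 0.44 on the log2 scale, so it was positive for 2 of the 3 numbers.

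Nfkbid, which encodes the nuclear IκB protein IκBNS that is known to act in regulatory T cell development, had the largest log2 change in size by FPKM. That of Tnfaip3, at 0.26, was close to it. By coverage the change was 0.25 for Tnfaip3 and -0.24 for Nfkbid, and on the assembled locus it was 0.48 for Nfkbie. Nfkbid had 8.59, 8.97 and 8.58 FPKM in PGE2 and 10.8, 13.8 and 8.11 FPKM in Vehicle. The PGE2 libraries lay close together, 2 Vehicle libraries lay above them, and Vehicle replicate 3 lay below them. For this gene the log2 change was -0.27 ± 0.17 (SE, n = 3 per group) with an adjusted p of 0.577 in limma, and the interval for the fold was 0.631 to 1.09. With the block the error was 0.13, and the p was 0.083 before and 0.326 after limma's adjustment over all tested genes. Within replicate numbers 1, 2 and 3 the difference was -0.30, -0.57 and 0.07. It was -0.10 without Vehicle replicate 2 and -0.45 without Vehicle replicate 3. The annotated entry carried 86.6%, 86.8% and 94.1% of the assembled locus in PGE2 and 75.9%, 86.6% and 93.7% in Vehicle.

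Nfkbie, which encodes IκBε, had the smallest p of the 10 genes, 0.134 before and 0.552 after limma's adjustment over all tested genes. It had 15.4, 17.2 and 15.0 FPKM in PGE2 and 15.3, 13.5 and 13.6 FPKM in Vehicle. All PGE2 libraries were above 2 of the Vehicle libraries, and Vehicle replicate 1 lay within the PGE2 range. The log2 change was 0.16 ± 0.09 (SE, n = 3 per group), with an interval for the fold of 0.958 to 1.30. On the assembled locus it was 0.48 with an adjusted p of 0.629 in limma. The annotated entry carried 53.4%, 43.6% and 46.8% of that locus in PGE2 replicate 1, PGE2 replicate 3 and Vehicle replicate 2, where the locus ran on past the gene, and 99.8% to 100% in the other 3 libraries.

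Nfkbib, which encodes IκBβ, had 27.8, 32.2 and 28.8 FPKM in PGE2 and 31.7, 29.4 and 24.1 FPKM in Vehicle. Vehicle replicates 1 and 2 lay within the PGE2 range and Vehicle replicate 3 lay below it. A log2 change of 0.06 ± 0.12 (SE, n = 3 per group) was measured, with an adjusted p of 0.892 in limma and an interval for the fold of 0.861 to 1.27. Its ends overlap Sirt2 and Ccer2 on the opposite strand (GRCm38). The library kit keeps strand, but whether the counting used it is not given in the sources used here, so its level is uncertain to that extent. By coverage on the FPKM scale Nfkbib stood at 17.1 in PGE2 and 17.1 in Vehicle, with a log2 change of 0.01.

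**Figure D3:**
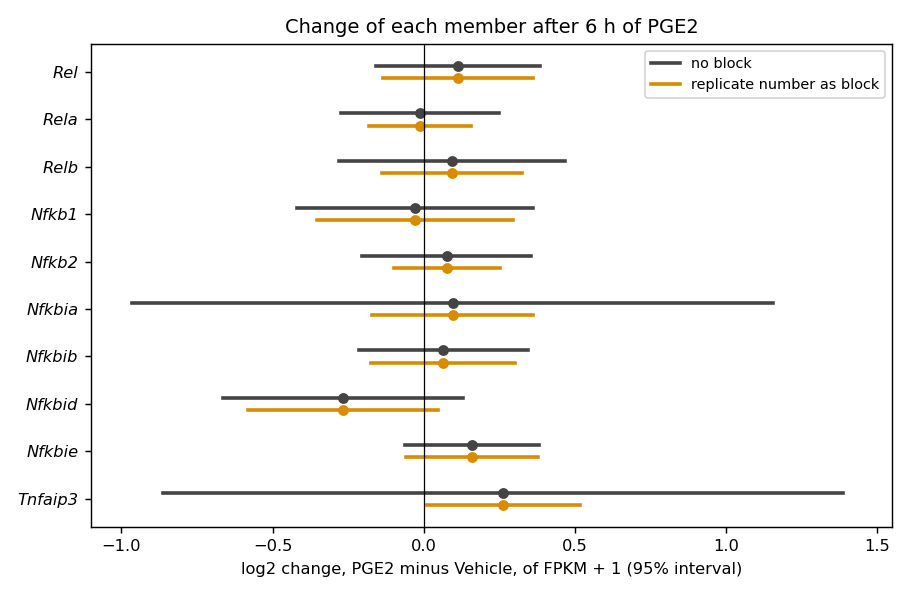
Log2 change of FPKM + 1, PGE2 minus Vehicle, of each of the 10 genes with its 95% interval, without a block (grey) and with the replicate number as a block (orange). Intervals without the block span 0 for every gene, and the block shortens those of Nfkbia and Tnfaip3 most.

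In order of mean FPKM, Nfkbia stood first, at 138 ± 52.0 in PGE2 and 135 ± 66.0 in Vehicle, and Nfkb1 next, at 100.4 ± 22.8 in PGE2 and 100.6 ± 4.38 in Vehicle (SD, n = 3 each). The ranges of these 2 overlapped in both groups. Nfkb2, Rela and Nfkbib followed, at 52.7, 41.9 and 29.6 FPKM in PGE2 and 50.01, 42.3 and 28.4 FPKM in Vehicle. Nfkb2 and Rela overlapped in Vehicle and not in PGE2. Tnfaip3, at 26.0 FPKM in PGE2 and 22.02 in Vehicle, overlapped in both groups with Nfkbib above it and with Relb below it, at 21.8 FPKM in PGE2 and 20.5 in Vehicle. Nfkbie, Rel and Nfkbid closed the order in PGE2 without overlap, at 15.9, 10.7 and 8.71 FPKM, while in Vehicle Nfkbie, Nfkbid and Rel overlapped at 14.1, 10.9 and 9.85 FPKM. By coverage on the FPKM scale Nfkbia was again first, at 138 in PGE2 and 135 in Vehicle. It did not overlap with the next gene, which was Nfkb2 at 49.2 in PGE2 and 46.8 in Vehicle. Nfkb2 was lower by coverage than by FPKM in both groups. Nfkb1 was lower as well, at 36.5 in PGE2 and 33.4 in Vehicle, and its mean stood below that of Rela in both groups. Nfkbib, Tnfaip3, Relb and Nfkbid were also lower by coverage than by FPKM. They stood at 17.1, 14.6, 13.1 and 6.33 in PGE2 and 17.1, 12.4, 12.3 and 7.72 in Vehicle. On this measure Nfkbie stood above Tnfaip3 in both groups, with overlap.

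The largest differences among the 10 genes were between replicate numbers and not between treatments, a pattern seen in the values and described here without a test. Replicate 3 stood below the mean of replicates 1 and 2 by 1.01 for Nfkbia in PGE2 and by 1.47 in Vehicle on the log2(FPKM + 1) scale. For Tnfaip3 it stood below by 1.19 in PGE2 and by 1.46 in Vehicle. As a ratio of FPKM, replicate 3 had 0.490 of the mean of the other libraries for Nfkbia in PGE2 and 0.357 in Vehicle, and 0.415 for Tnfaip3 in PGE2 and 0.340 in Vehicle. These 2 of the 10 genes were among 30 of the 12113 tested genes, 0.248%, in which replicate 3 was lower by at least 1 in both groups. The spread of Nfkbia and Tnfaip3 within groups stood at percentiles 98.9 and 99.2 of all tested genes.

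The other 8 genes did not share that size. For Relb replicate 3 minus the mean of the others was -0.26 in PGE2 and -0.48 in Vehicle, for Nfkbid -0.03 in PGE2 and -0.54 in Vehicle, and for Nfkb1 -0.60 in PGE2 and 0.02 in Vehicle. Replicate 3 was the lowest library of both groups in 6 of the 10 genes, Rela, Relb, Nfkb2, Nfkbia, Nfkbid and Tnfaip3, against 26.5% of all tested genes.

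**Figure D4:**
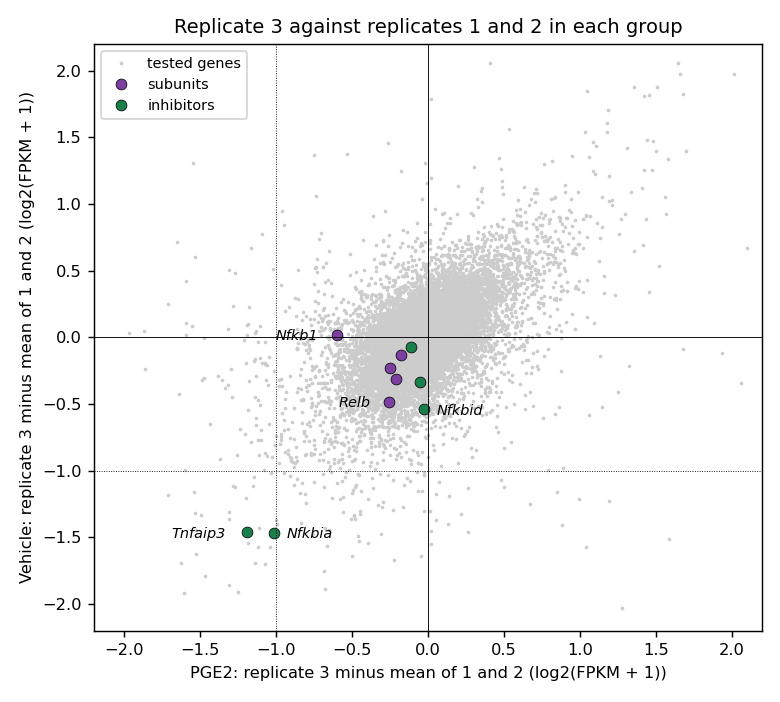
Replicate 3 minus the mean of replicates 1 and 2, in log2(FPKM + 1), in PGE2 (horizontal axis) and in Vehicle (vertical axis). Grey points are tested genes, of which 18 lie outside the axes, and coloured points are the 10 genes. Nfkbia and Tnfaip3 lie below -1 (dotted lines) in both groups.

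Of the 30 genes 15 were protein coding and 10 were small nucleolar RNAs. Besides Nfkbia and Tnfaip3 they held Nfkbiz, another nuclear IκB protein, and the early response genes Zfp36 and Egr1, which were named after their values were seen. The other protein-coding genes among the 30 included Cd69, a known NF-κB target, and Ppp1r15a, Pld3, Bckdhb and Tnfrsf8. Whether the 30 genes share a function was not tested. Nfkbiz had 19.9, 18.2 and 7.09 FPKM in PGE2 and 15.1, 18.0 and 6.07 FPKM in Vehicle. Zfp36, which encodes an RNA-binding protein that destabilises cytokine transcripts, had 47.2, 39.3 and 14.3 FPKM in PGE2 and 45.7, 44.1 and 13.9 FPKM in Vehicle. Egr1, a transcription factor induced within minutes of stimulation, had 8.40, 5.30 and 1.73 FPKM in PGE2 and 6.14, 5.72 and 1.75 FPKM in Vehicle. In a list of 10 immediate early genes replicate 3 was the lowest library of both groups in 8, against 26.5% of all tested genes. By the larger drop, of at least 1 in both groups, it was low in 2 of the 10, Egr1 and Zfp36. That drop was seen in 0.248% of all tested genes. Replicate 3 was also the shallowest library of each group, at 4.54 gigabases of fragments in PGE2 and 3.996 in Vehicle, where the other libraries had 5.20 and 5.45 in PGE2 and 5.04 and 5.12 in Vehicle. The part of depth and of early response genes in the low Nfkbia and Tnfaip3 values was not tested. Without both libraries of replicate 3 the log2 change was -0.06 for Nfkbia, 0.17 for Tnfaip3, 0.18 for Nfkb1 and -0.44 for Nfkbid, with none of the 10 genes called.

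The rest of the pathway was described by lists chosen by gene function, with earlier results of these data known. The counts called in them are a description beside all tested genes and not a test of the lists. Of 20 other IκB proteins, deubiquitinases and ubiquitin-editing partners 18 were tested, and 0 passed in either direction with or without the block; at an unadjusted p under 0.05, limma without the block counted 1 above and 3 below Vehicle. Their median log2 change was -0.01, beside -0.03 over all tested genes. The member with the highest level, Tax1bp1, an adaptor of A20, had 77.4, 76.5 and 70.6 FPKM in PGE2 and 68.0, 65.4 and 61.4 FPKM in Vehicle. Its groups did not overlap, and with a log2 change of 0.20 ± 0.08 (SE, n = 3 per group) and an adjusted p of 0.364 in limma it did not pass. Otulin came closest to a call, with a log2 change of -0.43. Its adjusted p in limma was 0.141 without the block and 0.055 with it, and 0.038 to 0.386 over the settings tried.

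All 28 kinases and adaptors that lead to the IκB kinase were tested, and again 0 passed in either direction with or without the block, and at an unadjusted p under 0.05 limma without it counted 1 above and 1 below Vehicle. Their median log2 change was -0.03. Of all tested genes 13% had an unadjusted p under 0.05 in limma without the block. The member with the highest level, Rbck1, which encodes the HOIL-1 part of the linear ubiquitin ligase, had 94.0, 93.6 and 79.4 FPKM in PGE2 and 109.8, 103.5 and 71.0 FPKM in Vehicle. Its values overlapped, with a log2 change of -0.07 ± 0.17 (SE, n = 3 per group) and an adjusted p of 0.916 in limma, and the sign turned in 3 of the 6 fits that left out 1 library. Birc2 came closest to a call, with a log2 change of 0.40. Its adjusted p in limma was 0.198 without the block and 0.0502 with it, and 0.027 to 0.5 over the settings tried.

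Of 20 receptors that signal to NF-κB, 14 were tested. Of these 2 rose, both of the TNF receptor family, and 0 fell. Among all tested genes 0.57% were called higher and 0.239% lower. The median log2 change of the receptors was 0.14. Tnfrsf9 (4-1BB) had 413, 411 and 353 FPKM in PGE2 and 182, 182 and 135 FPKM in Vehicle, a log2 change of 1.24 with an adjusted p of 0.013 in limma. Tnfrsf4 (OX40) had 455, 499 and 480 FPKM in PGE2 and 322, 263 and 266 FPKM in Vehicle, a log2 change of 0.75 with an adjusted p of 0.033 in limma. Tnfrsf18 (GITR) rose as well with the block, with a log2 change of 0.79 and an adjusted p of 0.033, against 0.056 without it and 0.027 to 0.228 over the settings tried. Leaving out PGE2 replicate 1 gave Tnfrsf9 an adjusted p of 0.069 and leaving out PGE2 replicate 2 one of 0.084, and for Tnfrsf4 it was 0.077 to 0.178 unless the library left out was Vehicle replicate 1. With no filter on low values the adjusted p was 0.096 for Tnfrsf9 and 0.127 for Tnfrsf4 in limma. Whether the changes of these receptors differ from those of the 10 genes was not tested.

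Of 40 known NF-κB targets 32 were tested. Of these 1 fell and 0 rose, against 0.239% of all tested genes called lower and 0.57% called higher. The median log2 change of the targets was -0.08. Lta, the cytokine lymphotoxin alpha, had 385, 419 and 415 FPKM in PGE2 and 581, 610 and 593 FPKM in Vehicle, so that its groups did not overlap. Its log2 change was -0.55 ± 0.09 (SE, n = 3 per group) with an adjusted p of 0.049 in limma, which ran from 0.093 to 0.224 when any 1 library was left out. With the block 1 target rose and 2 fell, against 1.77% of all tested genes called higher and 1.49% called lower. Besides Lta these were Irf4, a transcription factor of effector regulatory T cells, and Ier3, an early response gene. Irf4 had 35.6, 27.4 and 27.3 FPKM in PGE2 and 56.1, 47.4 and 44.9 FPKM in Vehicle. Its log2 change was -0.70, with an adjusted p of 0.009 in limma with the block and 0.072 without it. Ier3 had 4.65, 3.92 and 5.22 FPKM in PGE2 and 2.77, 2.06 and 2.86 FPKM in Vehicle. Its log2 change was 0.65, with an adjusted p of 0.025 in limma with the block and 0.097 without it.

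**Figure D5:**
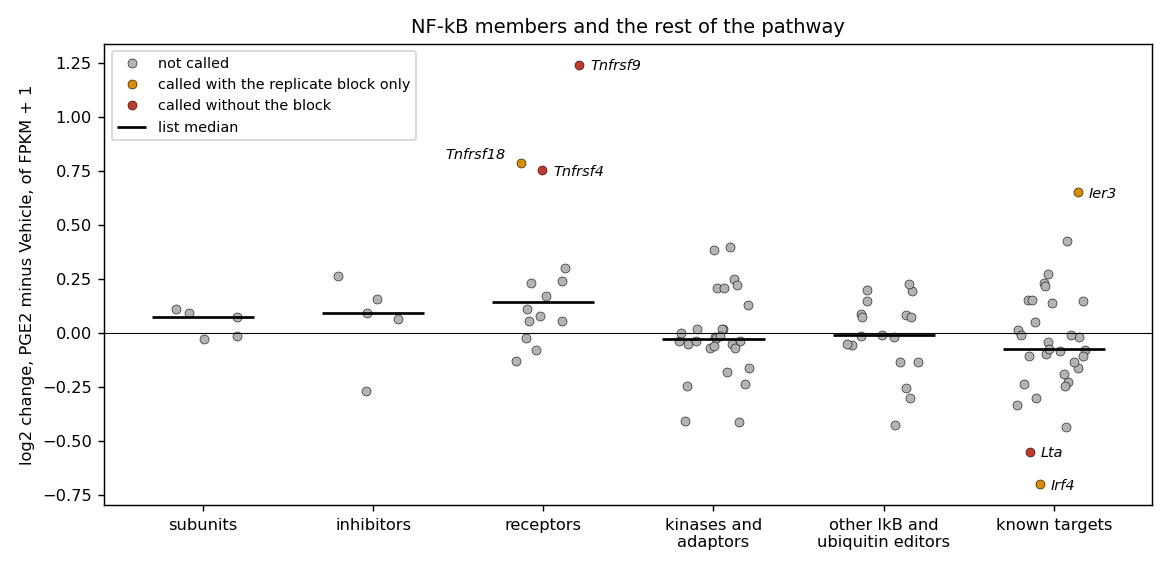
Log2 change of FPKM + 1, PGE2 minus Vehicle, of each tested gene in the subunits, the inhibitors and 4 other pathway lists. Each point is a gene, the bar is the list median, red points passed limma's test without the block and orange points passed with it but not without it. The 10 subunit and inhibitor points lie between -0.27 and 0.26, and the called receptors between 0.75 and 1.24.

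The sorted cells carried the markers of the label. Foxp3 had 135.6, 119.4 and 91.1 FPKM in PGE2 and 99.4, 101.4 and 75.4 FPKM in Vehicle. Its log2 change was 0.32, with an adjusted p of 0.514 in limma without the block and 0.092 with it. From coverage the change of Foxp3 was 0.19, with an adjusted p of 0.712 in limma without the block. All 7 regulatory T cell markers were above 1 FPKM in at least 1 library, with a sum of 2127 to 2172 FPKM in PGE2 and 1667 to 1759 FPKM in Vehicle. The sum includes Tnfrsf18, called higher with the block, at a mean of 707 FPKM in PGE2 and 412 in Vehicle. Il2ra, also in the sum, had a mean of 640 FPKM in PGE2 and 691 in Vehicle. All 8 myeloid and all 6 erythroid and platelet markers were under 1 FPKM in every library, with S100a8, S100a9, Pf4 and Ppbp listed at 0. Of 8 dendritic cell markers 7 were under 1 FPKM, with Siglech at 0 and Ccl22 at 5.29 to 8.27 FPKM in PGE2 and 3.30 to 5.25 FPKM in Vehicle. Of 6 CD8 and NK cell markers 4 were under 1 FPKM, with Klrb1c, Ncr1 and Klra8 at 0 and a list sum of 8.46 to 11.2 FPKM in PGE2 and 6.19 to 8.06 FPKM in Vehicle. Of 6 stromal and endothelial markers 4 were under 1 FPKM, with Pdgfra at 0, Pecam1 at 10.4 to 11.9 FPKM in PGE2 and 9.06 to 10.6 FPKM in Vehicle, and a list sum of 11.8 to 14.4 FPKM in PGE2 and 12.5 to 16.2 FPKM in Vehicle. Of 8 B cell markers 5 were under 1 FPKM, and the sum of the list, mostly Ighm, was 87.5 to 131 FPKM in PGE2 and 132 to 235 FPKM in Vehicle; its part in the values of the 10 genes was not tested. Mitochondrial genes took 3.31% to 3.80% of FPKM in PGE2 and 3.41% to 4.34% in Vehicle.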

How the data were processed

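Per the submitters' processing notes, reads were handled with Trim Galore and HISAT2 on mm10; their versions are not given, and neither are the gene annotation or the quantifying program, in the sources used here. Per the file headers, each library's table gives coverage, FPKM and TPM per gene. The deposited FPKM is scaled to transcript length and library size, and the deposited coverage signal is the mean read depth over a gene. The deposited TPM column was not used. Counts are not at hand, so no counting error is given. Depth was read as the constant ratio of coverage to FPKM in single-transcript genes, 3.996 to 5.446 gigabases of fragments.

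Entries under an annotated gene were used, 47643 IDs, of which 47224 are in GENCODE release M21 without regard to version; entries listed more than once, 14 to 19 IDs in each table, were added up. The 12113 genes that averaged at least 1 FPKM were tested on log2(FPKM + 1), which understates changes of low genes, with limma 3.58.1 (R 4.3.3, trended variance, two-sided, Benjamini-Hochberg, threshold 0.05) on all 6 libraries without covariates. In simulated data for PGE2 against Vehicle with 12113 genes, 34% of 100 genes changed 1.5-fold and 77% of 100 changed 2-fold were recovered, with 7 false calls, and 0 calls were made with no change. The simulated libraries shared no effect of the replicate number, and the changed genes were drawn at random. These rates do not give the recovery for genes with a wide spread, such as Nfkbia and Tnfaip3.

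Whether the replicate numbers in the titles pair the libraries was checked on deviations from the group means over tested genes. They correlated at 0.227, 0.312 and 0.529 for numbers 1, 2 and 3, and the numbers were used as a block. Deviations from a group mean cancel out within the group. A shared deviation of replicate 3 alone therefore tends to give positive values for any combination of numbers 1 and 2. PGE2 replicate 1 with Vehicle replicate 2 had 0.271, and PGE2 replicate 2 with Vehicle replicate 1 had 0.149. The check shows that the replicate 3 libraries deviated together and cannot show whether numbers 1 and 2 pair. The labels do not say what a number marks. For the 10 genes limma's adjusted p ran from 0.240 to 0.937 with the block and from 0.552 to 0.976 without it.

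The 10 genes and the lists were chosen with earlier results of these data known. Named genes are the 10 genes, up to 4 called genes per pathway list (or the gene with the highest level where none was called), Foxp3 and leading markers; the genes most like the member with the smallest p, also in the rule, are not reported here. Tnfrsf18, Irf4 and Ier3, called with the block and not without it, were added after their values were seen. So were Otulin and Birc2, which had the smallest p of their lists. Nfkbiz, Zfp36, Egr1, Cd69, Ppp1r15a, Pld3, Bckdhb and Tnfrsf8 were added in the same way. Promoters came from a RefSeq table (GRCm38.p6), which 8 of the 10 genes matched. Figures were drawn with matplotlib 3.10.9.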

Additional observations from a re-analysis of the deposited data

How the results depend on the processing

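The call of the 10 genes did not depend on the processing tried: in 21 other settings, 210 values in all, 0 were called, and the adjusted p ran from 0.176 to 1. The log2 change turned sign in 20 of the 210, of which 10 were fits without 1 library, and the cause was not tested. Rela was 0.0332 with median centring, with or without the replicate block. Nfkb1 was 0.0174 with median centring (with or without the block), 0.12 from coverage (with or without the block), 0.14 from the assembled locus and 0.18 without both libraries of replicate 3. Without both, Nfkbia was -0.056 and Nfkbib -0.0277. Leaving out 1 library at a time gave -0.0893 to 0.0712 for Rela, -0.0668 to 0.21 for Relb, -0.15 to 0.17 for Nfkb1, -0.028 to 0.15 for Nfkb2, -0.39 to 0.43 for Nfkbia, -0.0463 to 0.15 for Nfkbib, -0.45 to -0.10 for Nfkbid, -0.23 to 0.66 for Tnfaip3 and -0.26 to 0.0493 for Rbck1.

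Over all tested genes 69 were called higher and 29 lower. The replicate block gave 215 higher and 180 lower, coverage 112 and 47, no filter on low values 33 and 12, and leaving out 1 library 16 to 53 higher and 4 to 16 lower. Lower calls were 13 with FPKM rescaled to a common sum and 16 without a variance trend. In settings chosen after seeing the data, the block gave 325 and 310 with coverage and 216 and 94 with median centring, and without both libraries of replicate 3 there were 94 and 44. The block changed no call among the 10 genes, the other IκB genes or the kinases and adaptors. With block and coverage 1 other IκB gene was lower and 1 kinase or adaptor higher, and with block and median centring 1 of these was higher. Without Vehicle replicate 3, and without both libraries of replicate 3, 1 was lower, and leaving out 1 library gave 0 to 1. Receptors called higher were 0 with no filter, 1 from the assembled locus and without both libraries of replicate 3, 4 with block and coverage, and 0 to 3 when 1 library was left out. Targets called lower were 0 with no filter, with median centring, without a trend, without both libraries of replicate 3 and in every fit without 1 library. The block, alone or with coverage, gave 1 higher and 2 lower. With block and median centring 1 was higher and 1 lower. The lower one was Irf4, with an adjusted p of 0.018 in limma, and Lta was not called there, at 0.051. With 3 libraries a group, the intervals for the fold reach up to 2.23 for Nfkbia and 2.62 for Tnfaip3 without the block and 1.28 and 1.43 with it.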
